A study of Homo sapiens with 5 samples.

Results

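The genes described here make the enzymes that add hydroxyl groups to proline and lysine in collagen, together with CRTAP, a partner of 1 of them. They were chosen by name as 3 catalytic (alpha) subunits of prolyl 4-hydroxylase (P4HA1, P4HA2, P4HA3), 3 lysyl hydroxylases (PLOD1, PLOD2, PLOD3), 3 prolyl 3-hydroxylases (LEPRE1, LEPREL1, LEPREL2, also named P3H1, P3H2 and P3H3) and CRTAP. All 10 were found among the 57905 genes with counts. Symbol LEPREL2 had a further identifier with no count, and the identifier with reads was used. RNA was sequenced from SVG-10B1 cells, an established astroglial line of human origin, grown in medium with serum. The unedited line, which the labels call wild-type and clone 1, gave 2 libraries. Derivatives that are heterozygous for the R132H substitution of IDH1 (R132H/WT) gave 1 library of clone 2 and 2 libraries of clone 6. Wild type is thus 1 line and the edited genotype 2 clones, and an effect of the edit cannot be told apart from differences between clones.

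Collagen chains are modified in the endoplasmic reticulum before they fold into a triple helix. Hydroxyl groups on proline hold the helix together, and those on lysine carry sugars and form the crosslinks between finished molecules. All 9 enzymes are dioxygenases that consume oxygen and 2-oxoglutarate and need iron and ascorbate. The R132H form of IDH1 makes 2-hydroxyglutarate, a competitor of 2-oxoglutarate, which is the link between the edit and this enzyme family. Transcript levels do not show enzyme activity.

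Totals ran from 13572114 to 21881726 reads per library. Of 12 astrocyte markers, 7 passed the filter on low counts, of which GJA1 and CLU were called higher and GLUL, NFIA and ID4 lower in the edited libraries. The summed level of the 12 markers was 285 and 298 CPM in wild type and 527 to 592 CPM in the edited libraries. GJA1 averaged 162 CPM in wild type and 389 CPM in the edited libraries, and CLU 35.9 and 115 CPM, and they made up the rise. The median log2 fold change of the 7 tested markers was -0.53. GFAP had 5 to 9 reads per library and AQP4 had 0 in every library. Levels are given as CPM, reads scaled to a common library size (TMM). The library of clone 2 and the library labelled clone 6 replicate 1 were closer to each other (median coefficient of variation 2.92% over genes of at least 20 CPM) than the wild-type pair (4.71%) or the clone 6 pair (10.51%). A label of 1 of these libraries may be wrong, which would change what each value per clone means. Clone 6 replicate 2 was also far from clone 2 (9.705%). It alone had high HSPA5, an endoplasmic reticulum chaperone, at 3224 CPM against 305.5 to 483 CPM. The part of that state in these distances was not tested, and the labels are used as given. Results are also given without single libraries where that ends a call of an enzyme gene, CRTAP or a gene named from the pathway lists. Calls of cell type markers and of neighbouring genes were not repeated in this way. The labels do not say that replicates are separate cultures, so p-values measure the spread between these libraries, which may be technical. IDH1 itself averaged 118 ± 1.33 CPM over the wild-type pair (SD, n = 2) and 108 ± 3.18 CPM over the edited libraries (SD, n = 3).

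The comparison of the 3 edited with the 2 wild-type libraries asked which of these transcripts differ between the genotypes. LEPREL1 rose and P4HA2, PLOD2 and LEPREL2 fell. The other 6 genes did not pass the test. A call means a Benjamini-Hochberg adjusted p under 0.05 in edgeR's quasi-likelihood test. It was reached by 17.1% of all 16471 tested genes, 7.64% as higher and 9.49% as lower in the edited libraries. Among the 10 genes, all of which passed the filter, 4 were called, 1 higher and 3 lower. The count is small, and no test was made of whether 4 of 10 differs from that background. It was 2 (LEPREL1 and P4HA2) when either wild-type library was left out, and 6, with PLOD1 and PLOD3 added as lower, when clone 6 replicate 2 was. The count over all genes moved too, to 500 of 16018 and 697 of 16060 genes without wild-type replicates 1 and 2, and to 5971 of 16183 without clone 6 replicate 2. The median log2 fold change of the 10 genes was -0.17, against 0.03 for all tested genes. In these bulk samples, fewer cells of a type and less RNA per cell cannot be told apart.

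**Figure D1:**
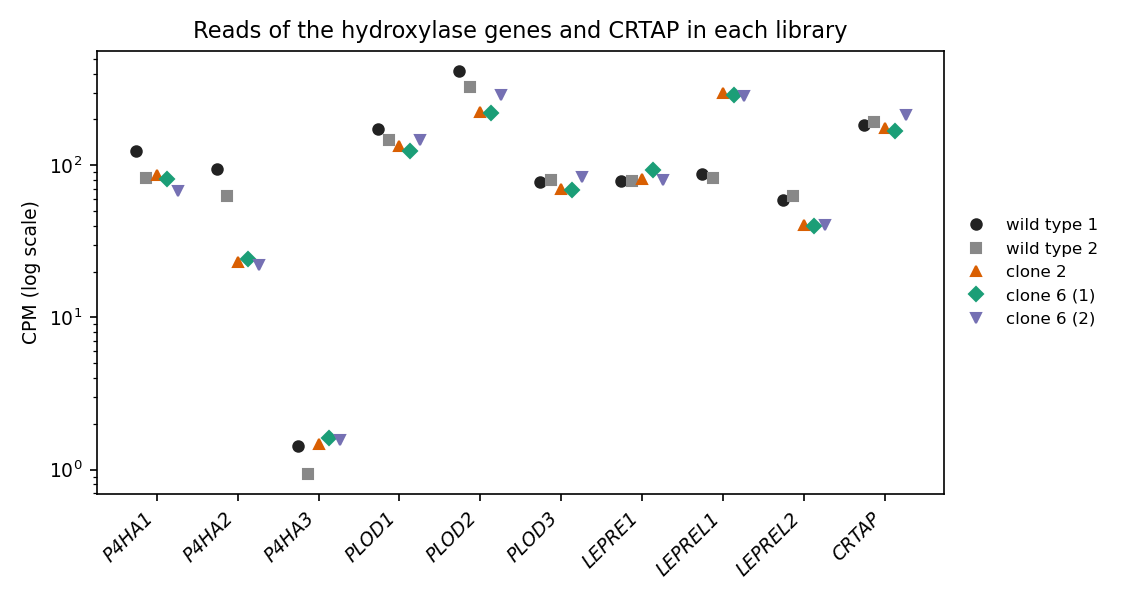
CPM (log scale) of the 10 genes in each of the 5 libraries, 1 point per library. The 3 edited libraries lie above both wild-type libraries for LEPREL1 (286 to 296 against 82.3 and 87.4 CPM) and below both for P4HA2 (22.1 to 24.05 against 62.7 and 94.7 CPM).

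The 250 bases before the gene start are shown for the 4 genes that changed, as the place where their transcription is likely to be set. Sequences are from RefSeq on GRCh38.p14, on the strand of the gene, and 9 of the 10 genes matched the table. Capitals mark ACGTG or GCGTG on either strand, the core that hypoxia-inducible factors bind, where a CACGTG would count once for each strand. The table holds 1 start per gene, which may not be the start used in these cells.
P4HA2, chr5:132227092-132227341, minus strand: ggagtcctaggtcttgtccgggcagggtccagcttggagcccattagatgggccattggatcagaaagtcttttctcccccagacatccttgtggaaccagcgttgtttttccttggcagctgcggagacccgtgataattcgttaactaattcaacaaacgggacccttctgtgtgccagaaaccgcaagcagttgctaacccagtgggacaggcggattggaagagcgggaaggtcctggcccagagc
LEPREL1, chr3:190122279-190122528, minus strand: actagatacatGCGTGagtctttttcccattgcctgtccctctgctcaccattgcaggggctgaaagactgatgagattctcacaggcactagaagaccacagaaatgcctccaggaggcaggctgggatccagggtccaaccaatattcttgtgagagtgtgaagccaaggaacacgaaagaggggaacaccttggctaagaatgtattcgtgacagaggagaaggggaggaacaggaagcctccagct
LEPREL2, chr12:6828157-6828406, plus strand: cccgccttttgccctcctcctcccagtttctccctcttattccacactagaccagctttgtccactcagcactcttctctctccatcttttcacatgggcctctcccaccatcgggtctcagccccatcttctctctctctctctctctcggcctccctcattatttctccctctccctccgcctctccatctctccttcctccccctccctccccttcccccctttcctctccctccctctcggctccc
PLOD2, chr3:146161185-146161434, minus strand: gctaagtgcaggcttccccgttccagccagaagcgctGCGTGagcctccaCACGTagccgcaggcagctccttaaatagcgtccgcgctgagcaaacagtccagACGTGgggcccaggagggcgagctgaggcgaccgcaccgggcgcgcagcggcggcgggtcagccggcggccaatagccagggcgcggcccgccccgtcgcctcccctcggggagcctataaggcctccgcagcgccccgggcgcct
The core occurs 3 times in the PLOD2 window, 1 time in that of LEPREL1 and 0 times in those of P4HA2 and LEPREL2. Of the 35116 promoters of the table, 43.2% hold it, and so do 6 of the 9 matched genes. CG dinucleotides number 30 in the PLOD2 window, 9 in that of P4HA2, 5 in that of LEPREL2 and 3 in that of LEPREL1, against a median of 11 over all promoters. The windows of the genes that changed thus share neither the core nor a CG content. A match is a run of letters and not a shown binding site.

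Prolyl 4-hydroxylase is built of alpha subunits, which hold the active site, and of P4HB, the protein disulfide isomerase that serves as its beta subunit. P4HA2 (ENSG00000072682, chromosome 5) had 94.7 CPM in wild-type replicate 1 and 62.7 CPM in replicate 2, 23.0 CPM in the clone 2 library, and 24.05 and 22.1 CPM in the clone 6 pair. Every edited library was below both wild-type libraries, and the edited libraries spread far less than the wild-type pair (23.05 ± 0.957 CPM, SD, n = 3, against 78.7 ± 22.65 CPM, SD, n = 2). The fall was 3.42-fold, or -1.77 in log2 fold change (SE 0.175, 95% interval -2.19 to -1.36, adjusted p = 0.0017). Of the tested genes, 3.16% had a log2 fold change as low or lower. With each library left out in turn it stayed between -2.04 and -1.45, with adjusted p-values from 3.34e-05 to 0.0149. Reads of P4HA2 and its antisense gene P4HA2-AS1 cannot be told apart without the strand, but P4HA2-AS1 had at most 3 reads in any library.

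P4HA1 (chromosome 10), the most widely expressed alpha subunit, had 123 and 81.9 CPM in wild type, 86.3 CPM in the clone 2 library, and 81.4 and 67.9 CPM in clone 6. The groups overlapped, since wild-type replicate 2 lay within the range of the edited libraries. Its log2 fold change was -0.39 (SE 0.188, interval -0.83 to 0.06, adjusted p = 0.207), moving to -0.06 or -0.65 when wild-type replicate 1 or 2 was left out. P4HA3 (chromosome 11) was rare, with 31 and 17 reads in wild type and 21 to 25 reads in the edited libraries (log2 fold change 0.38, interval -0.34 to 1.09, adjusted p = 0.435). It shares 166 exonic bases with PPME1 on the opposite strand, a gene with 1456 to 4424 reads, so its few reads are uncertain. P4HB had 398 ± 22.3 CPM over the wild-type pair (SD, n = 2) and 369 ± 62.8 CPM over the edited libraries (SD, n = 3; log2 fold change -0.11, adjusted p = 0.647). Its mean hid a split, with 413.5 and 381.9 CPM in wild type, 328.2 CPM in the clone 2 library, and 337.5 and 441.4 CPM in clone 6. Of 13 alternatives, 1 called P4HB lower. The 2 main alpha subunits thus had unlike values: P4HA2 fell in every edited library, and P4HA1 overlapped between the groups.

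Wild-type replicate 1 had more of every alpha subunit than wild-type replicate 2: 1.51-fold for P4HA1 and for P4HA2, and 1.47-fold for the rare P4HA3. That library also had 1.27-fold more PLOD2 and 1.185-fold more PLOD1. P4HA1, P4HA2 and PLOD2 are known targets of hypoxia-inducible factors. All 24 other hypoxia-inducible genes listed for comparison were higher in wild-type replicate 1 as well, with a median log2 difference of 0.51. The difference was not limited to them: 20 of 28 collagen chain genes (median 0.26) and 7 of the 10 enzyme and partner genes (median 0.17) were higher there too. Over all tested genes, log2 CPM minus the wild-type mean had a median of -0.001 in replicate 1 and 0.001 in replicate 2. CA9, a carbonic anhydrase, had 26.9 and 0.935 CPM and NDRG1, a stress-response gene, 96.4 and 9.52 CPM in replicates 1 and 2. The cause of these differences between the wild-type libraries was not tested. Against wild-type replicate 2 alone the log2 fold change of P4HA2 was -1.45 (adjusted p = 0.0149).

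Prolyl 3-hydroxylases add a rarer hydroxyl group at a few prolines. LEPREL1 (P3H2, ENSG00000090530, chromosome 3), which acts mainly on the collagen IV of basement membranes, had 87.4 and 82.3 CPM in wild type, 296 CPM in the clone 2 library, and 291 and 286 CPM in clone 6. The edited libraries were all high and close together (291 ± 4.74 CPM, SD, n = 3, against 84.85 ± 3.60 CPM, SD, n = 2), and the groups were far apart. The rise was 3.43-fold, or 1.78 in log2 fold change (SE 0.0878, 95% interval 1.57 to 1.99, adjusted p = 0.000249). Of the tested genes, 1.74% had a log2 fold change as high, and by p-value it ranked 15 of 16471. With each library left out in turn the log2 fold change stayed between 1.73 and 1.82 (adjusted p from 8.66e-08 to 0.00956).

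LEPREL2 (P3H3, chromosome 12), which works with lysyl hydroxylase 1, moved the other way. It had 59.1 and 62.4 CPM in wild type, 40.3 CPM in the clone 2 library, and 40.1 and 40.4 CPM in clone 6. The groups did not overlap, and the edited libraries were nearly equal. The fall was 1.51-fold (log2 fold change -0.59, SE 0.0885, 95% interval -0.81 to -0.38, adjusted p = 0.00671). The call rested on having both wild-type libraries, since the adjusted p was 0.0669 without replicate 1 and 0.0798 without replicate 2, with log2 fold changes of -0.64 and -0.56. GPR162 on the same strand shares 114 exonic bases with LEPREL2 and had 146 to 342 reads per library.

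LEPRE1 (P3H1, chromosome 1) modifies fibrillar collagens in a complex with CRTAP and the cyclophilin PPIB. It had 79.3 and 79.0 CPM in wild type, 81.6 CPM in the clone 2 library, and 93.4 and 79.4 CPM in clone 6 (log2 fold change 0.10, interval -0.14 to 0.34, adjusted p = 0.546). Its lowest edited value was just above both wild-type values. CRTAP (chromosome 3), which carries no active site, had 183 and 192 CPM in wild type, 174 CPM in the clone 2 library, and 169 and 213 CPM in clone 6. The groups overlapped (log2 fold change -0.01, interval -0.30 to 0.27, adjusted p = 0.951), and the sign changed with the library left out, from -0.14 to 0.05. PPIB averaged 110 ± 5.58 CPM over the wild-type pair (SD, n = 2) and had 69.7, 70.8 and 109.8 CPM in clone 2 and clone 6 replicates 1 and 2 (log2 fold change -0.40, SE 0.204, adjusted p = 0.228). Without clone 6 replicate 2 its log2 fold change was -0.66 (adjusted p = 5.53e-05). None of the 3 genes of this complex passed the test with all libraries.

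Lysyl hydroxylases differ in the lysines they modify. PLOD2 (chromosome 3), which acts on the telopeptides and so sets the kind of crosslink, had 416 and 327 CPM in wild type, 222.5 CPM in the clone 2 library, and 222 and 289 CPM in clone 6. Every edited library was below both wild-type libraries, and clone 6 replicate 2 was the nearest to them. The fall was 1.52-fold (log2 fold change -0.60, SE 0.158, 95% interval -0.98 to -0.23, adjusted p = 0.0442). The call was lost with any 1 of these libraries left out: the adjusted p was 0.299 and 0.0906 for wild-type replicates 1 and 2, 0.123 for clone 2 and 0.122 for clone 6 replicate 1, with log2 fold changes of -0.77 to -0.42. In clone 6 replicate 2 the chaperone HSPA5, a marker of load on the endoplasmic reticulum, had 3224 CPM, against 305.5 to 483 CPM in the other libraries. The part of that state in the PLOD2 value was not tested, and without that library the log2 fold change of PLOD2 was -0.76 (adjusted p = 0.000235).

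PLOD1 (chromosome 1), the main lysyl hydroxylase of helical lysines, had 173 and 146 CPM in wild type, 133 CPM in the clone 2 library, and 124 and 146 CPM in clone 6. The groups overlapped narrowly at 146 CPM, since clone 6 replicate 2 lay just above wild-type replicate 2 (log2 fold change -0.24, interval -0.52 to 0.03, adjusted p = 0.197). PLOD3 (chromosome 7), which also transfers sugars to hydroxylysine, had 77.6 and 79.9 CPM in wild type, 70.1 CPM in the clone 2 library, and 68.4 and 83.6 CPM in clone 6 (log2 fold change -0.09, interval -0.36 to 0.18, adjusted p = 0.628). Clone 6 replicate 2 lay above both wild-type libraries and the other edited libraries below them. Without clone 6 replicate 2, PLOD1 and PLOD3 had log2 fold changes of -0.32 and -0.20 (adjusted p = 0.0141 and 0.0438). PLOD3 shares 429 exonic bases with ZNHIT1 on the opposite strand, which had 468 to 639 reads per library.

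**Figure D2:**
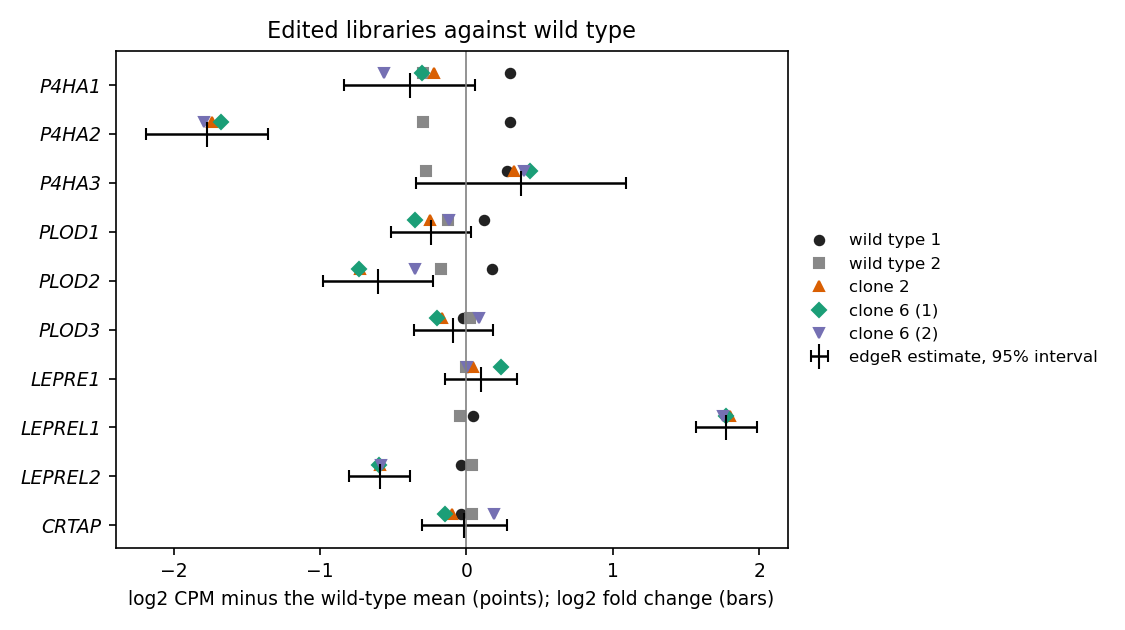
Points show log2 CPM of each library minus the wild-type mean, and bars show edgeR's log2 fold change of edited against wild type with its 95% interval. The intervals of P4HA2 (-2.19 to -1.36), PLOD2 (-0.98 to -0.23), LEPREL1 (1.57 to 1.99) and LEPREL2 (-0.81 to -0.38) exclude 0.

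Edited and wild-type CPM did not overlap for 6 of the 10 genes, 3 higher (P4HA3, LEPRE1 and LEPREL1) and 3 lower (P4HA2, PLOD2 and LEPREL2). Over all tested genes this held for 51.5%, 26.1% higher and 25.3% lower, so the count of 6 lies near the background. In size, LEPREL1 and P4HA2 stand in the tails of the distribution over all genes, whereas 2141 tested genes had a log2 fold change at or below that of PLOD2 and 2180 at or below that of LEPREL2.

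**Figure D3:**
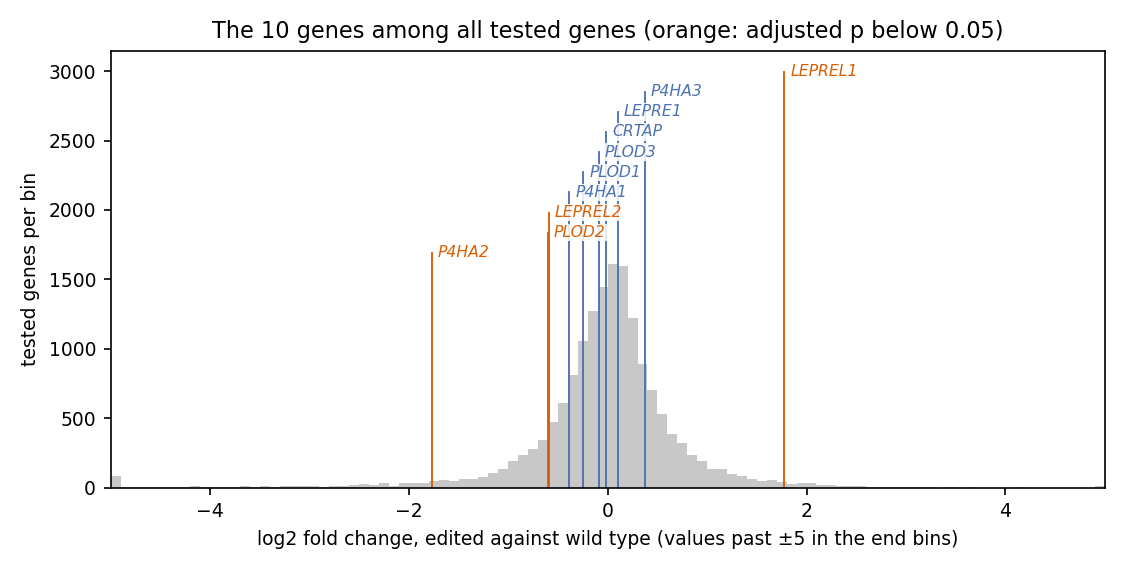
Histogram of log2 fold changes of edited against wild type over the 16471 tested genes (values past ±5 in the end bins), with a line for each of the 10 genes, orange where the adjusted p was below 0.05. P4HA2 (-1.77) and LEPREL1 (1.78) lie in the tails, and the other 8 lie between -0.60 and 0.38.

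Levels were compared between genes as CPM per kilobase of the longest coding transcript in GENCODE 29. In wild type PLOD2 was highest at 99.55 ± 16.9, followed by PLOD1 at 54.2 ± 6.50 and P4HA1 at 36.1 ± 10.3 CPM per kilobase (SD, n = 2). CRTAP, PLOD3, LEPRE1, LEPREL1, P4HA2 and LEPREL2 followed between 28.2 and 23.1 CPM per kilobase. The wild-type libraries of P4HA2 (28.3 and 18.7) spanned the means of that whole group, so its place within the group is not resolved. Nor is that of P4HA1, which in wild-type replicate 2 had 28.8 CPM per kilobase beside 28.9 for CRTAP. P4HA3 came last at 0.521 ± 0.155 CPM per kilobase.

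In the edited libraries LEPREL1 moved by its mean from place 7 to place 1, at 82.9 ± 1.35 CPM per kilobase (SD, n = 3). Its lowest edited library (81.6) was above the highest of PLOD2 (77.4). Its wild-type place is one of means: P4HA2 (28.3) was above it (24.9) in replicate 1, and LEPREL2 (23.7) was above it (23.46) in replicate 2. PLOD2 followed at 65.5 ± 10.3 and PLOD1 at 45.75 ± 3.75 CPM per kilobase. LEPRE1, CRTAP, P4HA1 and PLOD3 lay between 28.3 and 25.35 CPM per kilobase and overlapped from library to library. LEPREL2 followed at 15.3 ± 0.066 and P4HA2 at 6.88 ± 0.286 CPM per kilobase, and P4HA3 was again last.

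The makeup of the families changed with these levels. LEPREL1 held 33.7 and 31.9% of the summed level per kilobase of the prolyl 3-hydroxylases in wild type, 66.45% in clone 2, and 64.1 and 66.1% in clone 6. LEPREL2 went from 31.3 ± 1.28% (SD, n = 2) to 12.1 ± 0.329% (SD, n = 3) and LEPRE1 from 35.9 ± 0.0177% to 22.4 ± 1.54%. The 3 enzymes were near equal parts in wild type, and LEPREL1 was the majority in every edited library. Among alpha subunits P4HA2 held 39.1% in both wild-type libraries and 18.1, 19.7 and 21.2% in clone 2 and clone 6 replicates 1 and 2. Among lysyl hydroxylases PLOD2 held 54.9 ± 2.42% in wild type and 47.8 ± 1.76% in the edited libraries. The edited and wild-type shares did not overlap for LEPREL1, P4HA2 or PLOD2, nor for any other gene of the 3 families. No background was taken for shares, and CPM alone did not overlap for 51.5% of all tested genes. Shares within a family are tied to one another, so a change in 1 gene moves the others. For LEPREL1, P4HA2 and PLOD2 the exact two-sided permutation p was 0.1, the smallest that 2 against 3 libraries can give. By the same test it was 0.2 for PLOD1, which had 30.1% in wild-type replicate 2 and 31.9% in clone 6 replicate 2. The share of P4HA2 was nearly the same in both wild-type libraries although its CPM differed 1.51-fold between them. With the length of all exons joined, chosen after the data were seen, its shares were 21.7% in wild type and 9.58% in the edited libraries.

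The summed level of the prolyl 3-hydroxylases was 73.7 ± 0.204 CPM per kilobase in wild type (SD, n = 2) and 126.5 ± 2.90 in the edited libraries (SD, n = 3). For the alpha subunits it was 72.3 and 47.9 CPM per kilobase in wild type and 37.9, 36.5 and 31.2 in clone 2 and clone 6 replicates 1 and 2. For the lysyl hydroxylases it was 196.9 and 164.5 CPM per kilobase in wild type and 129, 125 and 156 in the same edited libraries. The sum of the first family was thus higher in every edited library than in wild type, and the sums of the other families were lower. Single genes differed from these sums: LEPREL2 was lower in every edited library. P4HA3 was higher, but it was not called and its few reads are uncertain. PLOD3 in clone 6 replicate 2 was above both wild-type libraries.

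**Figure D4:**
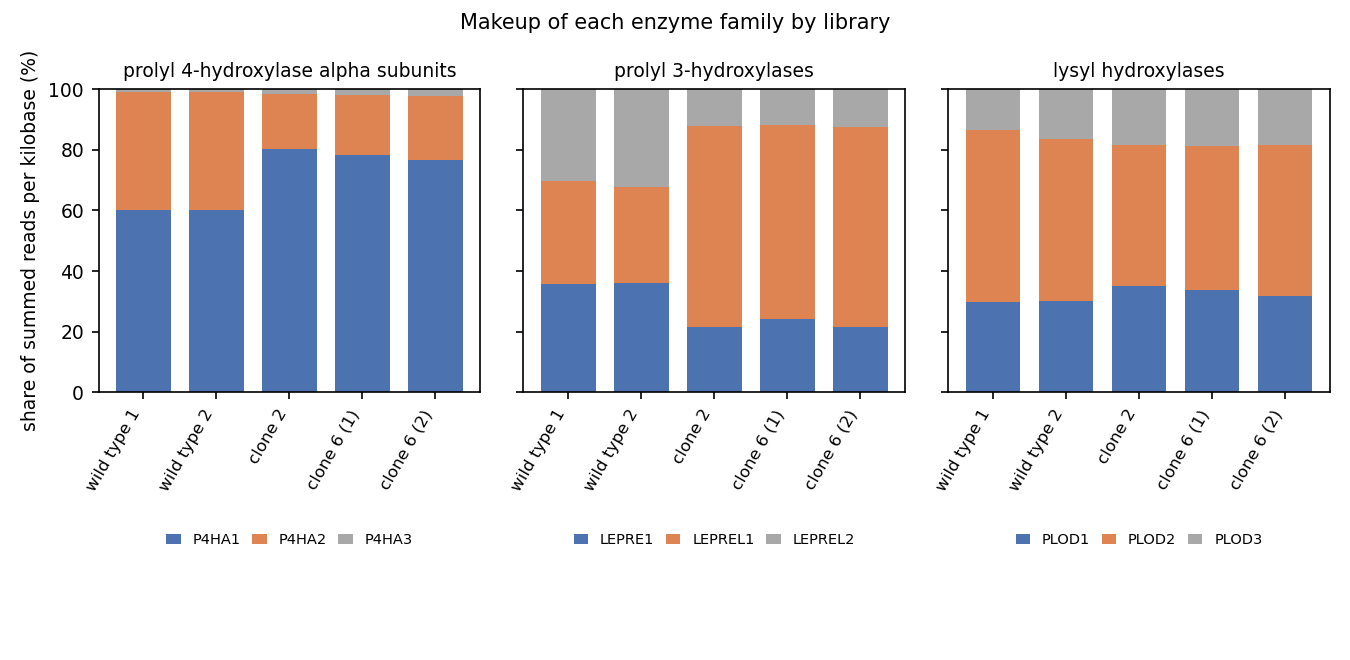
Stacked bars give each gene's share (%) of the summed CPM per kilobase of its family in each of the 5 libraries, with clone 6 replicates in brackets. LEPREL1 takes 64.1 to 66.45% of the prolyl 3-hydroxylases in the edited libraries against 31.9 and 33.7% in wild type, and P4HA2 takes 18.1 to 21.2% of the alpha subunits against 39.1%.

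Each clone was also set against wild type, in a fit with 3 groups. These comparisons share the wild-type libraries, and clone 2 has 1 library, which is assumed to vary like the other groups. In clone 2, 2 of the 10 genes were called (3.81% of all genes, 1.65% higher and 2.16% lower): LEPREL1 at 1.80 in log2 fold change (SE 0.141, adjusted p = 0.0054) and P4HA2 with -1.78 (SE 0.282, adjusted p = 0.0271, and 0.087 without wild-type replicate 1). In clone 6, 3 were called (8.98% of all genes, 3.87% higher and 5.11% lower): LEPREL1 with 1.77 (SE 0.123, adjusted p = 0.00138), P4HA2 with -1.77 (SE 0.218, adjusted p = 0.00743) and LEPREL2 with -0.59 (SE 0.127, adjusted p = 0.0378, and 0.316 and 0.366 without wild-type replicates 1 and 2). LEPREL2 had the same log2 fold change of -0.59 in clone 2, with an adjusted p of 0.107. PLOD2 had -0.74 in clone 2 and -0.54 in clone 6 (adjusted p = 0.156 and 0.125).

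The difference between the clones was tested directly, as clone 6 minus clone 2. It called 0 of the 10 genes and 0 of all genes (0.00%) by edgeR, with 114 genes at an unadjusted p below 0.05, and 2 genes by DESeq2. Log2 differences of the 10 genes ran from -0.21 (P4HA1) to 0.20 (PLOD2), and that of LEPREL1 was -0.04 (95% interval -0.39 to 0.31). Without clone 6 replicate 1, 1 library of each clone is left and only the wild-type pair gives a spread, and 872 genes were called, none of them among the 10. If the labels of clone 2 and clone 6 replicate 1 are not right, this difference is not one between clones.

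Partner genes of the pathway were taken from gene lists. Of 16 folding and glycosylation partners in the endoplasmic reticulum, all tested, 1 was called higher and 3 lower, with a median log2 fold change of -0.10. COLGALT2, a galactosyltransferase that acts on hydroxylysine, rose from 1.59 ± 0.551 CPM (SD, n = 2) to 9.68 CPM in clone 2 and to 8.195 and 6.57 CPM in clone 6 (log2 fold change 2.37 with SE 0.294, adjusted p of 0.00362, and 0.0503 without wild-type replicate 1). COLGALT1, the abundant form of that enzyme, is given for comparison after its values were seen, with 164 ± 2.09 CPM over the wild-type pair (SD, n = 2) and 154.5 ± 4.83 CPM over the edited libraries (SD, n = 3). SERPINH1, the collagen chaperone HSP47, fell from 363 and 347 CPM to 198, 214 and 151 CPM, by 0.92 on the log2 scale (SE 0.149, adjusted p = 0.00907). CREB3L1, a transcription factor that drives collagen production, fell by 1.45 on the log2 scale (SE 0.221, adjusted p = 0.0073). Leaving out wild-type replicate 1 or 2 in turn, the adjusted p was 0.0974 and 0.0757 for SERPINH1 and 0.0866 and 0.0624 for CREB3L1. Called genes of this list numbered 0 and 1 when wild-type replicate 1 and 2 were left out, and 11, of which 10 lower, when clone 6 replicate 2 was.

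Of 19 tested genes (of 20) for collagen export, propeptide cleavage and crosslinking, 1 was called higher and 4 lower, with a median of 0.03. ADAMTS3, a procollagen peptidase, fell by 1.49 on the log2 scale (SE 0.193, adjusted p = 0.00423, and 0.0621 without wild-type replicate 1). SEC23A, a coat protein of the vesicles that leave the endoplasmic reticulum, fell from 272 and 250 CPM to 165, 159.5 and 171 CPM (log2 fold change -0.66, adjusted p = 0.00444, and 0.0648 without wild-type replicate 1). TRAM2, a translocation protein linked to collagen synthesis, rose by 0.48 (adjusted p = 0.0239), but lost its call without any of the first 4 libraries (adjusted p from 0.0689 to 0.197). Called genes of this list numbered 1 and 3 without wild-type replicates 1 and 2 and 13 without clone 6 replicate 2.

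Collagen chain genes encode the substrates of these enzymes. Of 28 tested chain genes (of 41), 14 were called lower, 2 higher and 12 were not called, with a median log2 fold change of -0.91 beside 0.03 for all tested genes. The count was 4 lower and 0 higher without wild-type replicate 1, and 6 and 0 without wild-type replicate 2. COL4A5, a chain of basement membrane collagen, fell from 38.1 and 29.4 CPM to 9.16, 8.88 and 7.26 CPM, by 2.00 on the log2 scale (SE 0.169, adjusted p = 0.000953). COL3A1, a fibrillar chain, fell by 2.28 (SE 0.323, adjusted p = 0.0057, and 0.0705 without wild-type replicate 1) and COL16A1 by 2.56 (SE 0.381, adjusted p = 0.00671, and 0.0695 and 0.0697 without wild-type replicates 1 and 2). COL11A1 rose by 1.94 (SE 0.521, adjusted p = 0.0474), with 13.5 and 14.7 CPM in clone 2 and clone 6 replicate 1 but 4.75 CPM in clone 6 replicate 2, and lost its call without any 1 of the first 4 libraries (adjusted p from 0.11 to 0.265). LEPREL1 thus rose in the same libraries in which COL4A5, of the collagen class it modifies, was lower. The other tested chains of that class, given after their values were seen, varied in extent. The abundant COL4A1 and COL4A2 had log2 fold changes of -0.95 and -0.98, COL4A6 had -2.22 and COL4A4 had -0.035.

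Markers of several cell types also differed between the groups, and those called are named after their values were seen. Of 12 markers of fibroblasts and pericytes, cells rich in collagen, 9 were tested, and none was at 0 in all libraries. PDGFRB, ACTA2, FAP, KCNJ8 and ABCC9 were called lower, and RGS5 was called higher. FAP, a protease of activated fibroblasts, averaged 29.5 ± 1.35 CPM over the wild-type pair (SD, n = 2) and 4.45 ± 0.801 CPM over the edited libraries (SD, n = 3), and RGS5, a pericyte marker, 6.20 ± 0.517 and 52.0 ± 22.55 CPM. Their summed level was 398 and 404 CPM in wild type, 348 and 347 CPM in clone 2 and clone 6 replicate 1, and 236 CPM in clone 6 replicate 2. DCN had at most 1 read in any library. Of 5 tested endothelial markers 3 were called lower (TIE1, TEK and FLT1) and 1 higher, with sums of 42.15 and 37.2 CPM in wild type and 10.8 to 15.8 CPM in the edited libraries. Of 5 tested neuron markers 2 were called higher (INA and GAD1), with sums of 10.7 and 10.95 CPM against 22.9 to 25.3 CPM. The marker calls were not repeated without single libraries. The part of these cell type markers in the results on collagen genes and their enzymes was not tested.

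**Figure D5:**
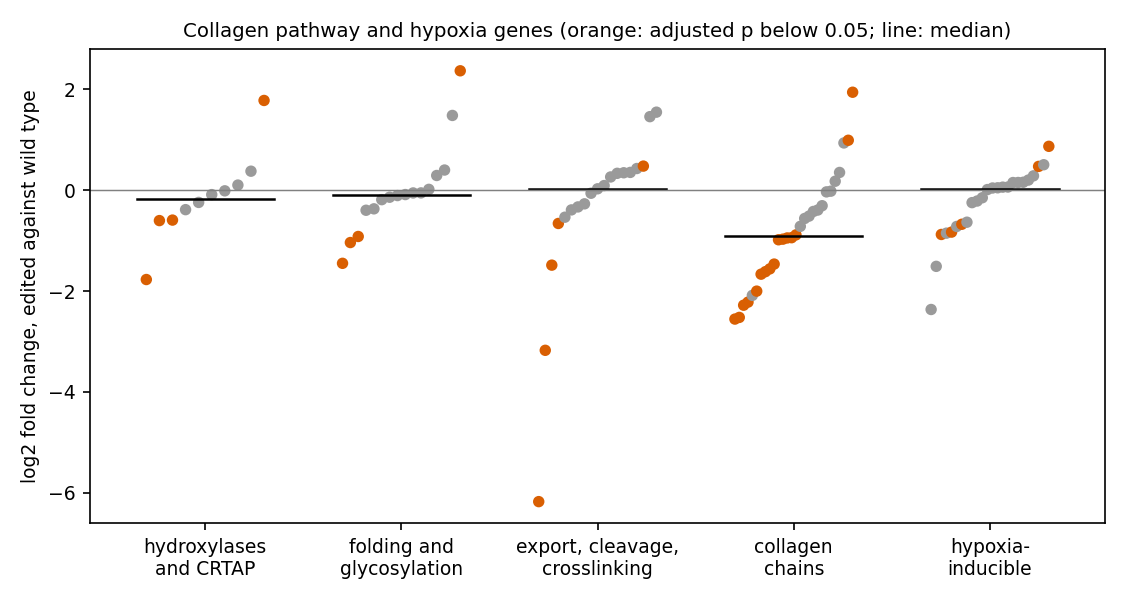
Log2 fold change of edited against wild type for each tested gene of 5 lists, sorted within a list, orange where the adjusted p was below 0.05, with a line at the median. Medians were -0.17 for the 10 genes, -0.10 for folding partners, 0.03 for export and crosslinking genes, -0.91 for collagen chains and 0.03 for other hypoxia-inducible genes.

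Of the 24 other hypoxia-inducible genes, 3 were called lower and 2 higher, with a median log2 fold change of 0.03, and leaving out wild-type replicate 1, clone 2 or clone 6 replicate 1 left 0, 2 or 3 called. Without clone 6 replicate 2 the count was 7, and it was 8 with the replicate block and 10 with no filter on low counts. ADM, a vasoactive peptide, fell by 0.68 (SE 0.0974, adjusted p = 0.00598), and the oxygen sensor EGLN1 by 0.88 (SE 0.156, adjusted p = 0.0122). Adjusted p-values were 0.079 and 0.0553 for ADM without wild-type replicates 1 and 2, and 0.0969 for EGLN1 without replicate 1. The glucose carrier SLC2A1 rose by 0.87 (adjusted p = 0.0468) and the sterol regulator INSIG2 fell by 0.83 (adjusted p = 0.047), but both lost their calls without wild-type replicate 1 (adjusted p = 0.138 and 0.291). They did so too without clone 2 (adjusted p = 0.0581 and 0.112) or clone 6 replicate 1 (adjusted p = 0.0644 and 0.121), and SLC2A1 without wild-type replicate 2 (adjusted p = 0.272). Of 7 sensors and regulators of the pathway, 0 were called by edgeR, with 2 at an unadjusted p below 0.05, 2 called by DESeq2, and 5 called by edgeR with clone 6 replicate 2 left out. SLC23A2, which carries the cofactor ascorbate into cells, fell from 59.1 and 55.95 CPM to 44.4, 42.3 and 42.8 CPM, by 0.42 on the log2 scale (SE 0.0903, adjusted p = 0.0241), but lost its call without any 1 of the first 4 libraries (adjusted p from 0.081 to 0.19).

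The genes next to the strongest members were looked up in GENCODE 29, taking the 3 nearest tested genes on each side. Of the 6 around LEPREL1, 0 were called, although MTAPP2 had a log2 fold change of 1.81 (adjusted p = 0.109). CLDN1 and IL1RAP, also on the side of higher coordinates, had 0.02 and -0.66. Of the 6 around P4HA2, 4 were called lower: CSF2 (-4.84), AC063976.7 (-2.33), SLC22A4 (-0.89) and PDLIM4 (-0.87). FNIP1 (0.26) and RAPGEF6 (-0.14), on the side of lower coordinates, were not called. Of all tested genes 9.49% were called lower, and the neighbour counts were not tested against that share. Nor were the calls of neighbours repeated without single libraries. Around P4HA3, LEPRE1 and PLOD1 3 of 6 neighbours each were called, all higher except 1 next to PLOD1.

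The genes with profiles most like LEPREL1 over the 5 libraries, by Euclidean distance between centred log2 CPM among 11214 genes, were EEF1A2 (distance 0.165), RASEF (0.172) and ENPP4 (0.197). EEF1A2, a translation elongation factor, had 97.6 and 89.0 CPM in wild type and 291, 304 and 326 CPM in the edited libraries. For P4HA2 they were HLA-B (0.265), FBXO44 (0.265) and the cytokine gene IL11 (0.271). IL11 had 71.3 and 50.7 CPM in wild type and 21.2, 21.7 and 20.6 CPM in the edited libraries. These are likenesses over 5 libraries and carry no test.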

How the data were processed

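Total RNA of 5 libraries of SVG-10B1 cells was sequenced. The authors deposited raw gene counts. Trimmomatic, STAR, HTSeq and build hg19 (GRCh37) are listed in the submitters' processing notes. Tool versions, strand setting and annotation release are not stated there. Of 63677 genes listed, 5772 had an empty value and were not measured, and 0 entries named no gene. Depth was 13572114 to 21881726 reads, at which 3 reads are 0.139 to 0.23 CPM.

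Groups followed the sample titles. Counts were fitted in R 4.3.3 with edgeR 4.0.16 (TMM, filterByExpr by group, quasi-likelihood F test, 16471 genes, 3 residual degrees of freedom, and 2 in the fit with 3 groups), with calls at a Benjamini-Hochberg adjusted p under 0.05. The standard error is the log2 fold change divided by the root of F. DESeq2 1.42.0 and other scalings, filters and samples served as alternatives. The procedure was also run on simulated counts that held no effects of clones or of single libraries. That run therefore cannot show how stable the calls in these libraries are. Log2 CPM used a prior count of 2. Lengths, overlaps and neighbours came from GENCODE 29 (GRCh38) by gene identifier. Its positions served only to find overlaps and the order of genes, and none is printed. Named genes were the 10 members, P4HB and PPIB, up to 4 called genes per list (minimum average log2 CPM 2), and the 3 nearest profiles of the largest rise and fall. The members and lists were chosen with earlier results of these data known.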

Additional observations from a re-analysis of the deposited data

How the results depend on the processing

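Among 13 alternatives, LEPREL1 and P4HA2 kept direction and call in all in the comparison of genotypes, with log2 fold changes of 1.73 to 1.82 and -2.04 to -1.45. LEPREL2 lost its call in 2 and PLOD2 in 6, among them clone 2 and clone 6 replicate 1 summed into 1 library (PLOD2 adjusted p = 0.121) and the ribosomal RNA share as a covariate (0.075). That share was 7.23 and 2.24% in wild type, 0.417% in the clone 2 library, and 9.79 and 0.63% in clone 6. The cause of the lost calls was not tested. P4HA1 passed the threshold with no filter on low counts (adjusted p = 0.0156) and with the replicate block (0.0158).

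Called genes numbered 4274 with no filter, 1528 with the summed libraries and 500 to 5971 (2 to 6 of the 10 genes) with single libraries left out. For clone 2 the count was 1878 with no filter and 175 to 3510 (1 to 4) with libraries left out. For clone 6 it was 3144 (5 of the 10) with no filter and 329 to 5119 (2 to 5). The clone difference gave 99 with no filter, 2 by DESeq2 and 0 to 872.

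With the replicate number as a block the counts were 4499, 1115 and 2569 for genotype, clone 2 and clone 6. The numbers are not shown to pair samples, as there are only 2 pairs, whose differences correlate at 0.17 over genes. In that fit P4HA1 differed between clones by 0.001 in place of -0.21, and CRTAP had 0.012. CRTAP had 0.027 with the summed libraries and -0.138 to 0.049 with libraries left out. The clone difference of PLOD2 was -0.007 to 0.376 with libraries left out. No scaling moved the median of all genes by over 0.1. Intervals of levels rest on 2 and 3 libraries.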
